A study of Mus musculus with 12 samples.

Results

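The hair matrix transcription factors Foxn1, Hoxc13, Msx1, Msx2, Lef1, Gata3, Dlx3, Sox21 and Foxe1, were followed through mouse scar RNA-seq. They were taken by gene symbol from the 12 count files, and these 9 genes stand among 35976 genes listed. All 9 passed the filter on low counts, which left 18853 genes to be tested. Foxe1, Foxn1, Hoxc13 and Sox21 are among the genes the study itself names from the same libraries, so their direction is not independent evidence.

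The scars came from male mice aged 8 to 12 weeks on a C57BL/6J background, with 3 mice in each of 4 groups. Each mouse received a 1.5-cm wound in the depilated back skin, and a device was fixed over it 6 days later. The device was lengthened by 1 mm/day to 8 mm in the traction groups, while the sham groups wore it without lengthening. Tem1 WT/WT mice carry intact Tem1, also called endosialin and listed under the symbol Cd248, whereas in Tem1 lacZ/lacZ mice lacZ replaces its single exon in every cell of the body. The groups are WTSH (Tem1 WT/WT, sham), WTTR (Tem1 WT/WT, traction), lacZSH (Tem1 lacZ/lacZ, sham) and lacZTR (Tem1 lacZ/lacZ, traction). All mice were thus wounded, depilated and fitted with a device, and no unwounded skin was analysed here. The libraries were made from poly(A) RNA of a part of each whole scar. Levels are given in CPM, the TMM-normalised read count scaled to a fixed library total. Totals ran from 41536788 to 64644293 counts. Cd248 was between 92.4 and 337 CPM in the 6 Tem1 WT/WT libraries and between 0 and 0.248 CPM in the 6 Tem1 lacZ/lacZ libraries, as the labels state.

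The hair matrix is the cluster of dividing keratinocytes at the base of a growing hair follicle. Under Wnt and BMP signals, many of them exchanged with the dermal papilla, matrix cells turn into the hair shaft, built of hair keratins and keratin-associated proteins, and into the inner root sheath around it. Follicles pass through growth, regression and rest, and matrix genes are high in growing follicles. Transcription factors set these fates. Lef1 carries the Wnt signal to its target genes together with beta-catenin. Msx1, Msx2, Dlx3 and Hoxc13 are homeodomain proteins, Foxn1 and Foxe1 forkhead proteins, Gata3 a zinc finger protein of the inner root sheath and Sox21 an HMG-box protein of the hair shaft cuticle.

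The genes lie on 8 mouse chromosomes in GRCm38, as annotated in GENCODE vM21. Foxn1 is on chromosome 11 from 78357577 to 78386558 on the minus strand and Dlx3 on the same chromosome from 95120119 to 95125296 on the plus strand. Hoxc13 spans 102921103 to 102928814 of chromosome 15, plus strand. Msx1 spans 37820485 to 37824583 of chromosome 5 and Msx2 spans 53466884 to 53473074 of chromosome 13, both on the minus strand. Lef1, the longest, runs from 131110471 to 131224356 on the plus strand of chromosome 3. Gata3 occupies 9857078 to 9890034 of chromosome 2, minus strand. Sox21 and Foxe1 each have 1 exon, Sox21 at 118233232 to 118237030 of chromosome 14, minus strand, and Foxe1 at 46343609 to 46346412 of chromosome 4, plus strand. Gata3 overlaps the opposite-strand gene 4930412O13Rik, which had 26 to 338 counts per library against at least 967 for Gata3. It also overlaps 9230102O04Rik on its own strand, which had 0 to 23 counts.

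RefSeq promoter windows of GRCm38.p6, 250 bases before to 50 bases after the start of transcription, were given for 6 of the 9 genes. Because all 9 genes were lower in the same contrast, the windows were searched on both strands for the words of their own families. These were TAATTA or TAATTG for homeodomain proteins, CTTTGAA or CTTTGAT or CTTTGTA or CTTTGTT for Lef1 and its relatives, and AGATAA or AGATAG or TGATAA or TGATAG for GATA proteins. GTAAACA or ATAAACA or GTCAACA were used for forkhead proteins, and CAATAAA or CGTAAAA for HOX13 proteins. Windows of Foxn1 and Msx2 each held the homeodomain word TAATTA, which reads the same on both strands, with its first base 29 bases before the start in Foxn1 and 187 bases before it in Msx2. Of 32851 promoter windows of this length, 12.4% held a homeodomain word. The Gata3 window held the GATA word TGATAG beginning 37 bases after the start, and 29.8% of all windows held a GATA word. The 3 windows are printed 5′ to 3′ on the gene's strand, since they show the word in a called gene and in the pair of members that share one, with the word in capitals. They lie at chr11:78386559-78386858 (Foxn1, minus strand), chr13:53472731-53473030 (Msx2, minus strand) and chr2:9878551-9878850 (Gata3, minus strand).
Foxn1: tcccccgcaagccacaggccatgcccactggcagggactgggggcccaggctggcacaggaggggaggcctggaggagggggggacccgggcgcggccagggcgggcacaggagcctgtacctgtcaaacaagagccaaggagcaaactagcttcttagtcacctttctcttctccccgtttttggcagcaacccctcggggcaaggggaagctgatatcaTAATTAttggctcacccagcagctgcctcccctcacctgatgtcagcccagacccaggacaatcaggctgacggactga
Msx2: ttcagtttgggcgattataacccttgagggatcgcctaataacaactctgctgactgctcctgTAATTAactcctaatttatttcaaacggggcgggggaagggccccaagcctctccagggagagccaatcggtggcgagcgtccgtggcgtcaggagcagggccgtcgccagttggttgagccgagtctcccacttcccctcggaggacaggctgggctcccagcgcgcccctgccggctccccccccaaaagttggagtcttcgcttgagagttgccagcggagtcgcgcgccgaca
Gata3: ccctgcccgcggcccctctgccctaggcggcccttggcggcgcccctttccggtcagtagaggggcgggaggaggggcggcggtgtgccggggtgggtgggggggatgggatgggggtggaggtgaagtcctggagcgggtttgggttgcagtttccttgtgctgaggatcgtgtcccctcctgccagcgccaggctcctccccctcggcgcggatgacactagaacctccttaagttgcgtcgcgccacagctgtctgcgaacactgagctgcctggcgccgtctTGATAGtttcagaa
The windows of Msx1 and Sox21 held none of the words. Lef1 has 4 windows, of which 3 held none and the fourth, at the start farthest downstream, held LEF/TCF, GATA and forkhead words, which 16.9%, 29.8% and 10.3% of all windows held. No window held a HOX13 word, present in 5.33% of all windows. A match describes letters and not a bound site.

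Per kilobase of merged exon, Dlx3 was the most abundant over the 12 libraries, at a mean of 21.6 CPM per kb. Gata3 and Hoxc13 followed at 12.7 and 12.2 CPM per kb. Msx2 stood at 5.80, Foxn1 at 3.76, Sox21 at 3.75, Foxe1 at 1.98, Lef1 at 1.54 and Msx1 at 0.91 CPM per kb. The 9 genes thus fell into an abundant trio and 6 genes of lower level, with Foxn1 and Sox21 level with each other. Msx1 rested on the fewest counts, 36 to 652 per library, and Dlx3 on the most, 1033 to 10898.

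Traction was compared with sham in Tem1 WT/WT mice first, since this contrast shows the scar under tension with Tem1 intact. All 9 factors were lower with traction, with log2 fold changes from -1.77 to -0.89 and a median of -1.36 against -0.01 over all genes tested. Hoxc13 and Gata3 fell past the threshold of an adjusted p of 0.05 in edgeR's quasi-likelihood test with Benjamini-Hochberg adjustment, and 2 of 9 genes compares with 3.54% of all genes called lower. For all 9 the lowest WTSH library lay above the highest WTTR library, a separation that 18% of all genes showed in this direction. WTSH 2 was the library highest for every member, and no member was called without it, nor without WTSH 1, WTTR 1 or WTTR 3. Of all genes, edgeR called 0% without WTSH 1 or WTSH 2, 1.86% without WTTR 1 and 3.62% without WTTR 3, in either direction. In scar tissue as a whole, fewer cells that express these genes and less of their RNA per cell cannot be told apart.

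Hoxc13, which switches on hair keratin genes, was at 28.8, 77.6 and 35.6 CPM in the 3 WTSH libraries and at 9.40, 19.1 and 14.8 CPM in the WTTR libraries. In lacZSH it was at 17.0, 42.7 and 29.8 CPM and in lacZTR at 27.6, 35.7 and 20.7 CPM. WTTR lay below every library of WTSH and lacZTR, whereas lacZSH and lacZTR overlapped. With traction in Tem1 WT/WT mice Hoxc13 fell by 1.71 on the log2 scale (SE 0.441, adjusted p = 0.0406, edgeR), a fall to 0.305 of the sham level.

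Gata3, which specifies the inner root sheath and is also a factor of T lymphocytes, was at 85.7, 87.8 and 49.7 CPM in WTSH and at 23.0, 36.5 and 31.1 CPM in WTTR. It was at 52.4, 44.8 and 33.6 CPM in lacZSH and at 41.1, 70.7 and 48.4 CPM in lacZTR. It was the one member for which WTSH 1 and WTSH 2 were close, and the lowest WTSH library was 1.36 times the highest WTTR library. Gata3 fell by 1.30 on the log2 scale with traction in Tem1 WT/WT mice (SE 0.285, adjusted p = 0.0326, edgeR). The summed level of 8 T lymphocyte markers was 258 to 343 CPM in WTSH and 290 to 578 CPM in WTTR. The sums thus overlapped between the groups and reached higher with traction. Thy1 made up most of each sum, at 195, 239 and 307 CPM in WTSH and 452, 259 and 343 CPM in WTTR. The sums thus followed Thy1 and say little about the other markers. Of the 8 markers, 2 were lower with traction and 0 were called in either direction, against 9.15% of all genes. Their part in the Gata3 and Lef1 levels was not tested.

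Msx2, a homeodomain factor that responds to BMP signals, was at 20.3, 59.0 and 20.8 CPM in WTSH, 7.35, 13.5 and 8.46 CPM in WTTR, 6.35, 23.7 and 14.9 CPM in lacZSH and 14.8, 24.7 and 14.4 CPM in lacZTR. The 3 WTTR libraries were below the 3 of WTSH and the 3 of lacZTR. The log2 fold change with traction in Tem1 WT/WT mice was -1.77, of which the SE was 0.531 and the adjusted p 0.0578 in edgeR. Msx1, its close relative, was at 2.45, 9.46 and 3.39 CPM in WTSH, 1.83, 2.30 and 1.91 CPM in WTTR, 0.857, 2.49 and 1.86 CPM in lacZSH and 1.26, 3.34 and 2.68 CPM in lacZTR. Its WTSH and WTTR groups came close, at a ratio of 1.07 between the lowest sham and the highest traction library. Its log2 fold change was -1.34 (SE 0.551, adjusted p = 0.124, edgeR).

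Dlx3, a homeodomain factor needed for the hair shaft and inner root sheath, was at 50.7, 158 and 65.5 CPM in WTSH, 26.5, 39.3 and 35.3 CPM in WTTR, 24.6, 58.8 and 43.0 CPM in lacZSH and 42.5, 82.6 and 48.6 CPM in lacZTR. The highest WTSH library stood 2.72 times above the mean of the other 2 WTSH libraries. Its log2 fold change with traction in Tem1 WT/WT mice was -1.44 (SE 0.450, adjusted p = 0.0639, edgeR). Lef1, the Wnt effector, was at 12.4, 41.6 and 15.2 CPM in WTSH, 6.45, 10.3 and 7.25 CPM in WTTR, 2.71, 16.5 and 10.2 CPM in lacZSH and 10.2, 18.7 and 10.7 CPM in lacZTR. Lef1 was the most variable member, with a highest library 15.3 times its lowest, and its log2 fold change was -1.53 (SE 0.608, adjusted p = 0.115, edgeR).

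Foxn1, the gene behind the nude mouse, which drives shaft differentiation, was at 13.2, 24.6 and 10.9 CPM in WTSH, 9.85, 8.08 and 8.38 CPM in WTTR, 7.19, 13.5 and 9.97 CPM in lacZSH and 11.2, 16.1 and 11.9 CPM in lacZTR. Foxn1 varied least among the 9, with a highest library 3.43 times the lowest. It also had the smallest log2 fold change with traction in Tem1 WT/WT mice, at -0.89 (SE 0.317, adjusted p = 0.0868, edgeR). Foxe1, the forkhead gene needed for orderly follicle growth, was at 5.17, 15.3 and 6.75 CPM in WTSH, 3.64, 3.71 and 3.25 CPM in WTTR, 1.71, 5.20 and 4.74 CPM in lacZSH and 5.72, 6.998 and 4.37 CPM in lacZTR. The 3 WTTR libraries of Foxe1 differed little from each other, with an SD of 0.250 CPM, while its lowest library of all was lacZSH 1. Its log2 fold change was -1.36 (SE 0.459, adjusted p = 0.0763, edgeR).

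Sox21, which acts in the hair shaft cuticle, was at 14.7, 30.1 and 14.9 CPM in WTSH, 5.47, 8.68 and 12.5 CPM in WTTR, 11.7, 14.8 and 10.8 CPM in lacZSH and 9.34, 23.0 and 15.2 CPM in lacZTR. WTTR lay below WTSH but overlapped both Tem1 lacZ/lacZ groups. The log2 fold change with traction in Tem1 WT/WT mice was -1.16 (SE 0.401, adjusted p = 0.0811, edgeR). The 7 members that did not pass the adjusted threshold had adjusted p-values from 0.0578 to 0.124. At an unadjusted p under 0.05 all 9 were lower, as were 14.7% of all genes.

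**Figure D1:**
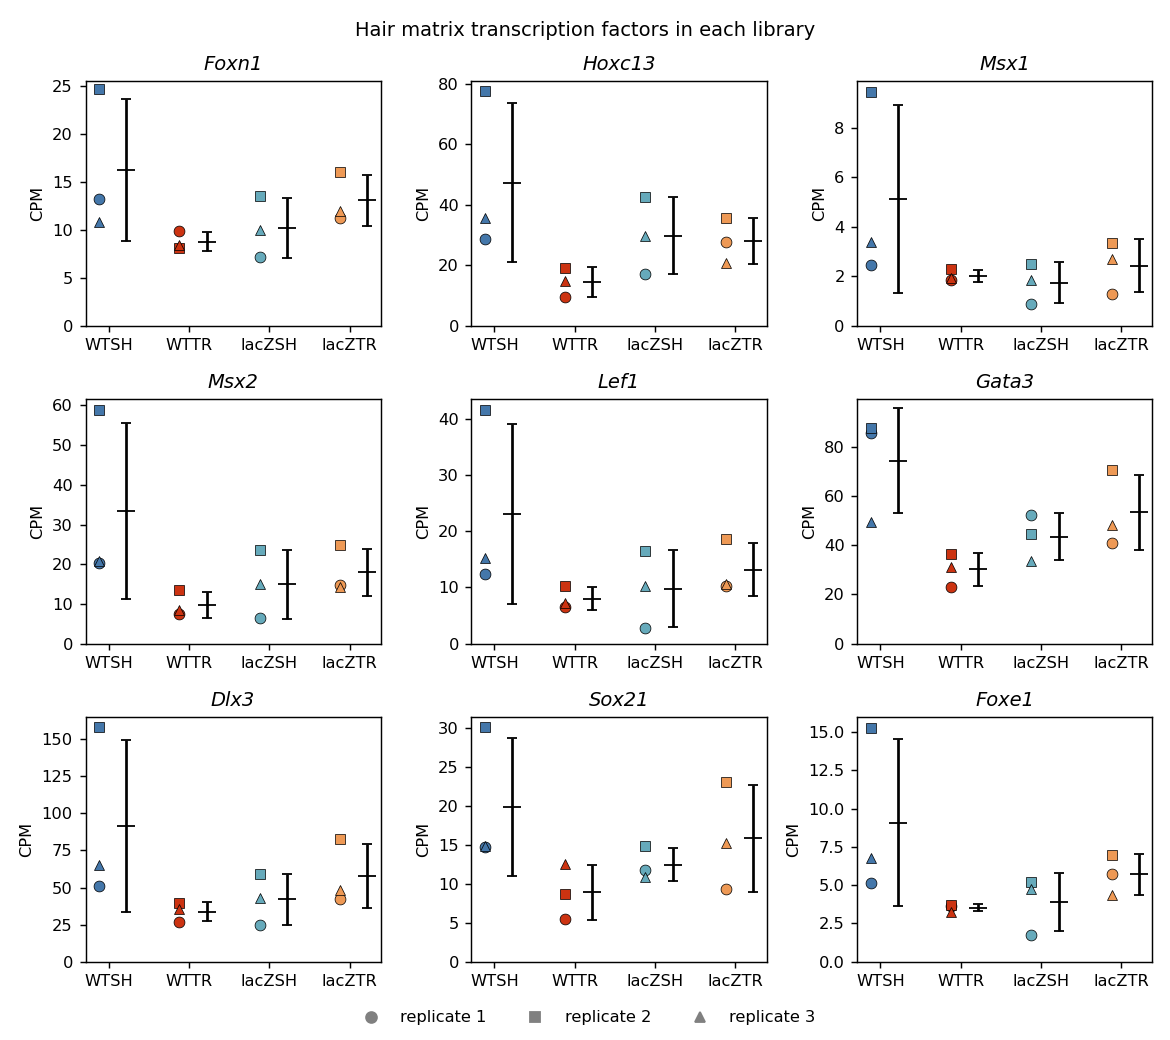
CPM of each of the 9 transcription factors in the 12 libraries (vertical axes from 0, one panel per gene), with replicates as symbols and the group mean with its SD (n = 3) as a black bar beside them. WTSH 2, the square in the first column, is the highest library in every panel, and WTTR lies below WTSH in all 9.

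WTSH 2 was the highest of the 12 libraries for all 9 members, at 1.30 times (Gata3) to 3.24 times (Msx1) the mean of WTSH 1 and WTSH 3. It was also the library with the most melanocyte marker RNA, at 810 CPM summed over 5 genes against 192 and 300 CPM in WTSH 1 and WTSH 3. Without WTSH 2 every member was still lower with traction, by 0.44 to 1.14 on the log2 scale, but edgeR called none of them (adjusted p from 0.0947 to 0.538), and the unadjusted p was under 0.05 for 3. The log2 fold changes of 8 members shrank by more than 1.5 times, and that of Gata3 went from -1.30 to -1.14. Without WTSH 2, edgeR also called 0 of 19411 genes in all in this contrast. The 2 calls were lost as well without WTSH 1, where edgeR called 0 of 19308 genes. They were also lost without WTTR 1 or WTTR 3, where 1.86% and 3.62% of all genes were called in either direction. Without WTSH 3, 1 call was lost and 4.22% of all genes were called. Without any 1 of these libraries, WTSH 2 included, the log2 fold changes of Hoxc13 and Gata3 stayed between -1.98 and -1.14.

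**Figure D2:**
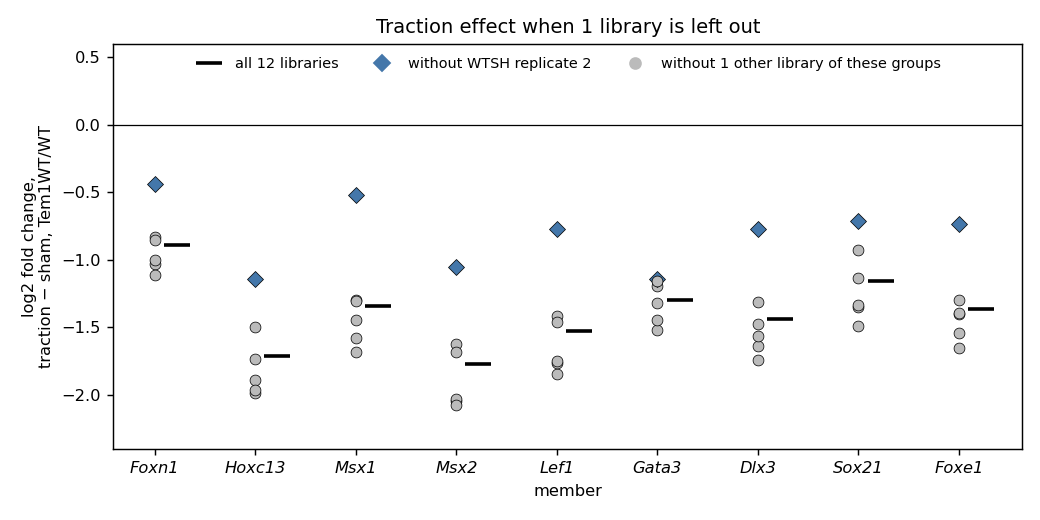
Log2 fold change of each member with traction in Tem1 WT/WT mice (vertical axis) in the full model (black bars), without WTSH replicate 2 (blue diamonds) and without each of the other 5 libraries of these groups (grey circles). All points lie below 0, and leaving out WTSH 2 gives the value nearest to 0 for every member.

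In Tem1 lacZ/lacZ mice the same contrast gave no fall of the group. Of the 9 members, 8 were higher and Hoxc13 lower with traction, with log2 fold changes from -0.09 to 0.55, a median of 0.36 and SEs of 0.281 to 0.596. None was called by edgeR, DESeq2 or limma-voom. In this contrast edgeR called 0% of all genes, DESeq2 0.0773% of 28443 genes and limma-voom 2.31% of 18853 genes. No member had an unadjusted p under 0.05 in any of these tests, where edgeR gave 5.66% of all genes as higher, and the lacZSH and lacZTR libraries overlapped for all 9, against 6.77% of all genes that lay apart and higher. Foxe1 had the largest change, 0.55 (SE 0.453, adjusted p = 0.742, edgeR). The library lacZSH 1 was the lowest of the 12 for Foxn1, Msx1, Msx2, Lef1, Dlx3 and Foxe1 but not for Hoxc13, Gata3 or Sox21. The median of the members was 0.21 without lacZSH 1, 0.79 without lacZSH 2, 0.60 without lacZTR 1 and 0.08 without lacZTR 2. Without lacZSH 1 the log2 fold change of Msx2 turned from 0.26 to -0.06.

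The interaction asks whether traction acted differently in the 2 genotypes. It was positive for all 9 members, from 1.25 (Foxn1) to 2.04 (Msx2), that is, the log2 fold change with traction was higher in Tem1 lacZ/lacZ than in Tem1 WT/WT mice. None was called by edgeR, which gave each an adjusted p of 0.548 and called 0% of all genes. All 9 had an unadjusted p under 0.05, as had 4.46% of all genes in this direction. Gata3 had the smallest error, with an interaction of 1.59 (SE 0.399). DESeq2's Wald test called none of the 9 either, at adjusted p-values from 0.0674 to 0.345, while it called 0.239% of 28443 genes. Without WTSH 2 the interactions ran from 0.79 to 1.43, and for 3 the unadjusted p was under 0.05, a count that was also 3 without lacZTR 2. The difference between the genotypes in the response of these genes was therefore not shown at the adjusted threshold.

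Under traction all 9 members were higher in Tem1 lacZ/lacZ than in Tem1 WT/WT mice, with log2 fold changes from 0.27 (Msx1) to 0.96 (Hoxc13). None was called by edgeR, DESeq2 or limma-voom, while edgeR called 0.0106% of all genes higher. In either direction DESeq2 called 7.81% of 28443 genes and limma-voom 0.0849% of 18853 genes. Foxn1, Hoxc13, Msx2, Gata3, Dlx3 and Foxe1, 6 of the 9, did not overlap between lacZTR and WTTR, against 12.9% of all genes in this direction. The gaps were narrow, the lowest lacZTR library being 1.07 to 1.18 times the highest WTTR library for these 6. At an unadjusted p under 0.05, 2 members, Hoxc13 and Gata3, were higher, as were 11.1% of all genes. This count was 0 without lacZTR 2 and 1 without WTTR 1, and without lacZTR 2 the median of the members went from 0.78 to 0.47 and Msx1 was lower. This contrast uses the same WTTR libraries as the traction contrast in Tem1 WT/WT mice, so these comparisons are not independent.

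In sham scars the order was the other way. All 9 members were lower in Tem1 lacZ/lacZ than in Tem1 WT/WT mice, with log2 fold changes from -1.56 (Msx1) to -0.67 (Hoxc13), and none was called by edgeR, DESeq2 or limma-voom. The adjusted p in edgeR ranged from 0.409 to 0.542, and 0.0053% of all genes were called lower. In either direction DESeq2 called 0.0703% of 28443 genes and limma-voom 0.0053% of 18853 genes. No member separated the groups, which 13.8% of all genes did in this direction, and 5 members had an unadjusted p under 0.05, as had 6.62% of all genes. This contrast uses the same WTSH libraries as the traction contrast in Tem1 WT/WT mice. Without WTSH 2 the log2 fold changes ran from -0.72 to -0.08 and no member had an unadjusted p under 0.05. That count was 1 without lacZSH 1 and 2 without lacZSH 3. It rose to 6 without WTSH 1 or WTSH 3 and to 7 without lacZSH 2.

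Averaged over both genotypes, traction left all 9 members lower, by 0.27 to 0.90 on the log2 scale. edgeR called none of them, against 3.23% of all genes called lower, and the unadjusted p was under 0.05 for 2, as for 13.5% of all genes in this direction. Without WTSH 2 the log2 fold changes ran from -0.62 to -0.02, their median went from -0.49 to -0.18, and without lacZSH 2 it was -0.32. Leaving out 1 library at a time gave 1 to 3 members at an unadjusted p under 0.05, with 1 without WTSH 2, WTTR 1, WTTR 3, lacZSH 2, lacZTR 1 or lacZTR 3. Hoxc13 was nearest to the threshold at -0.90 (SE 0.306, adjusted p = 0.0792, edgeR).

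**Figure D3:**
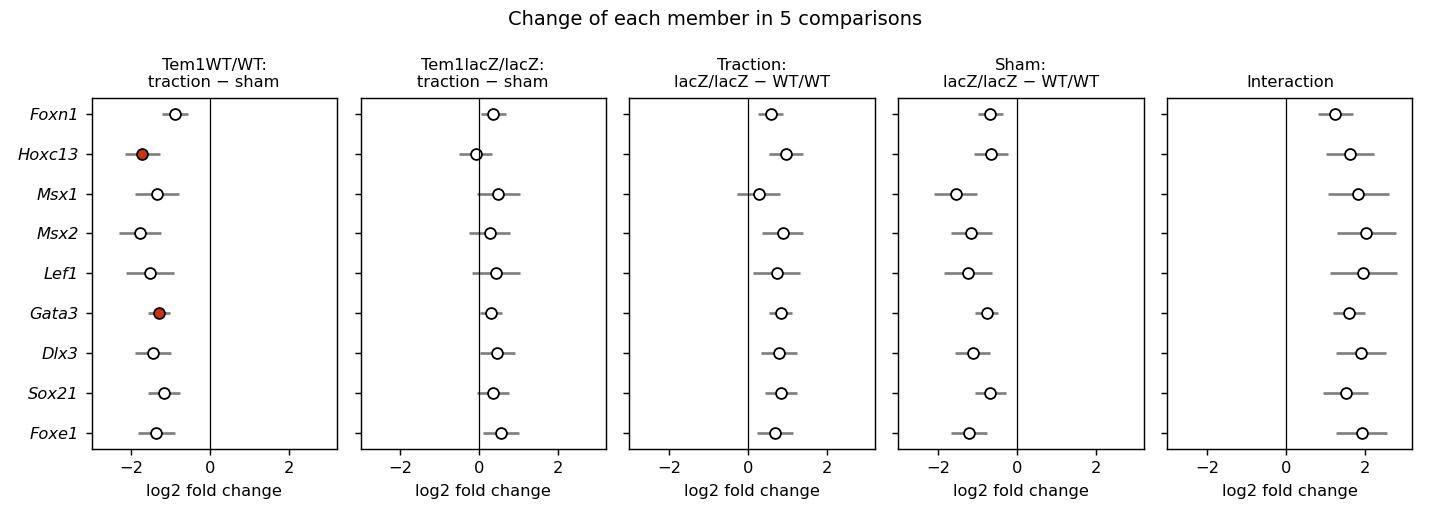
Log2 fold changes (horizontal axes) with SE bars for the 9 members (rows) in 5 comparisons, red where the adjusted p in edgeR was under 0.05 and open otherwise. Hoxc13 and Gata3 in the first panel are the only red points, and the signs of the first and last panels are opposite for all 9.

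Across the 4 groups the mean level ran in nearly the same order for each gene. WTSH had the highest mean for 9 of 9 members and lacZTR the next for 8 of 9, the exception being Hoxc13, for which lacZSH was next. WTTR had the lowest mean for 8 of 9, and lacZSH for Msx1. Groups next to each other in this order overlapped in all but 1 case, WTTR below lacZTR for Hoxc13. WTTR varied least of the groups for Foxn1, Msx1, Lef1, Dlx3 and Foxe1, for example Foxe1 with a coefficient of variation of 7.08% against 60.1% in WTSH, and for Msx1 12.4% against 74.6%.

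The likeness of the members from library to library differed between pairs. The root mean square difference of log2 CPM, each gene centred on its mean of the 12 libraries, measured likeness of pattern, and 14716 genes whose mean log2 CPM was 0 or more were compared. The closest pair of members was Msx2 and Dlx3, at 0.227, and the farthest Lef1 and Gata3, at 0.767. Gata3 was also 0.689 from Msx1, and both of these distances were above 0.667, that of the median gene from Gata3. Both were below the distance of the median gene from the partner, 0.980 for Lef1 and 0.883 for Msx1. Dlx2, a homeodomain gene of the same family, was the gene most like Dlx3 (0.175). Padi3, an enzyme that modifies trichohyalin in the inner root sheath, was the gene most like Msx2 (0.198). Foxn1 was closest to Fzd10 (0.144), a Wnt receptor gene, and then to St14 (0.171), the gene of the protease matriptase. Sox21 was closest to Gfra3 (0.196) and then to Wnt10b (0.252), a Wnt ligand made in the matrix, and Foxe1 to Slain1 (0.256) and Dlx3 (0.258). Hoxc13 was closest to 4930451G09Rik (0.161) and Adamts20 (0.174), a secreted metalloprotease, and Gata3 to Casz1 (0.189), a zinc finger factor, and Pdzd2 (0.191). Lef1 was closest to the kinase genes Dclk3 (0.227) and Hunk (0.248). Msx1 had the least close neighbours, Grik3 (0.293) and Scube1 (0.319). For comparison, the median gene differed from the other 8 members by 0.585 (Foxn1) to 0.980 (Lef1).

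Other genes of the hair follicle give the setting, in lists that were written for this purpose. With traction in Tem1 WT/WT mice, edgeR called 5 of 24 other hair follicle transcription factors tested lower and 0 higher. Of all genes, 3.54% were called lower there. Of the 24, 19 had a negative log2 fold change, and the median was -0.43. Lhx2, a LIM-homeodomain factor of the follicle bulb and stem cells, fell by 1.49 (SE 0.329, adjusted p = 0.0328, edgeR). It went from 23.7, 42.5 and 19.9 CPM in WTSH to 8.68, 12.9 and 9.04 CPM in WTTR. Foxq1, the forkhead gene of the hair medulla, fell by 1.42, and Egr2 by 1.19. Both were highest among the Tem1 WT/WT libraries in WTSH 1 and not in WTSH 2, which sets them apart from the 9 members. Of 33 relatives of the members 19 were tested, 0 were called in any of the 6 comparisons, and their median with traction in Tem1 WT/WT mice was -0.03. Foxn3 and Foxn2, the most abundant of these, had log2 fold changes of -0.23 and 0.38 there.

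Of 19 signal genes of the matrix tested, 14 were lower with traction in Tem1 WT/WT mice, with a median of -0.55. Of the 19, 1 was called lower and 0 higher, against 3.54% of all genes called lower. The called gene was Bmp4, a BMP ligand, at -1.49 (SE 0.364, adjusted p = 0.0367, edgeR). Of the structural products, 5 of 12 hair shaft keratins and 4 of 12 inner root sheath genes were called lower. Of 12 other hair shaft genes, 3 were called lower, and 0 genes of these lists were called higher. All 12 keratins and all 12 sheath genes had negative log2 fold changes, as had 11 of the 12 other hair shaft genes. Their medians were -2.36, -1.97 and -2.32, against -1.36 for the 9 factors. Krt34, a hair shaft keratin, fell by 2.67 on the log2 scale (adjusted p = 0.0329, edgeR). Tchh, the gene of trichohyalin in the inner root sheath, fell by 1.98 (adjusted p = 0.0329, edgeR), and Krtap3-3, a keratin-associated protein gene, fell by 2.33 (adjusted p = 0.0329, edgeR). With traction in Tem1 lacZ/lacZ mice 0 genes of any of these lists were called. There the 12 shaft keratins were all lower, from -0.84 to -0.06, where 8 of the 9 factors were higher. Like the members, none of these genes was called without WTSH 2, where edgeR called no gene.

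The factors and the shaft keratins did not rank the libraries alike. The summed CPM of 12 hair shaft keratins was 6.10, 4.13 and 4.43 times that of the 9 factors in WTSH and 1.86, 3.28 and 2.12 times in WTTR. It was 2.99, 10.9 and 9.75 times in lacZSH and 10.2, 2.49 and 3.85 times in lacZTR. The factors were highest in WTSH 2, at a sum of 504 CPM, and next in lacZTR 2, at 282 CPM. The keratins were highest in lacZSH 2, at 2421 CPM, and next in WTSH 2, at 2081 CPM, where the factors were highest. In lacZTR 1 the keratins were at 1669 CPM and the factors at 164 CPM. The WTTR libraries were low in both, at 93.5 to 141 CPM of factors and 174 to 463 CPM of keratin.

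Markers of other cells were read beside the members. All 8 dermal papilla markers were detected, and their sum was 65.6 to 109 CPM in WTSH and 55.9 to 69.8 CPM in WTTR. Of the 8, 5 were lower with traction in Tem1 WT/WT mice. edgeR called 1 of the 8 higher and 0 lower, against 9.15% of all genes called in either direction. The 5 melanocyte markers summed to 192 to 810 CPM in WTSH and 80.9 to 193 CPM in WTTR. The 6 basal keratinocyte markers ran from 7405 to 10570 CPM in WTSH and from 8630 to 17690 CPM in WTTR, and overlapped. The 7 suprabasal keratinocyte markers ran from 5122 to 8480 CPM in WTSH and from 1581 to 9927 CPM in WTTR, and overlapped too. Of the 6 basal markers 3 were lower with traction (median log2 fold change -0.038), and of the 7 suprabasal markers 6 (median -0.735). The 7 fibroblast markers were at 26000 to 41160 CPM in WTSH and 43810 to 110700 CPM in WTTR, and the 6 endothelial markers at 298 to 452 and 771 to 890 CPM, without overlap. The sebaceous gland markers summed to 1521 to 2638 CPM in WTSH and 818 to 1516 CPM in WTTR, and the adipocyte markers to 1057 to 1194 and 296 to 781 CPM, also without overlap. The 7 neutrophil markers, of which 1 was at 0 in all WTSH libraries, reached 6796 CPM in WTTR 1, the library in which Hoxc13, Gata3 and Sox21 were lowest. The 6 skeletal muscle markers ran from 1096 to 11680 CPM in WTSH and from 275 to 1801 CPM in WTTR. With traction in Tem1 WT/WT mice edgeR called 1 melanocyte and 1 sebaceous gland marker lower. It called 2 fibroblast, 4 endothelial and 4 neutrophil markers higher, and none of the keratinocyte, adipocyte or skeletal muscle markers. The part of these cell types in the members' levels was not tested.

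**Figure D4:**
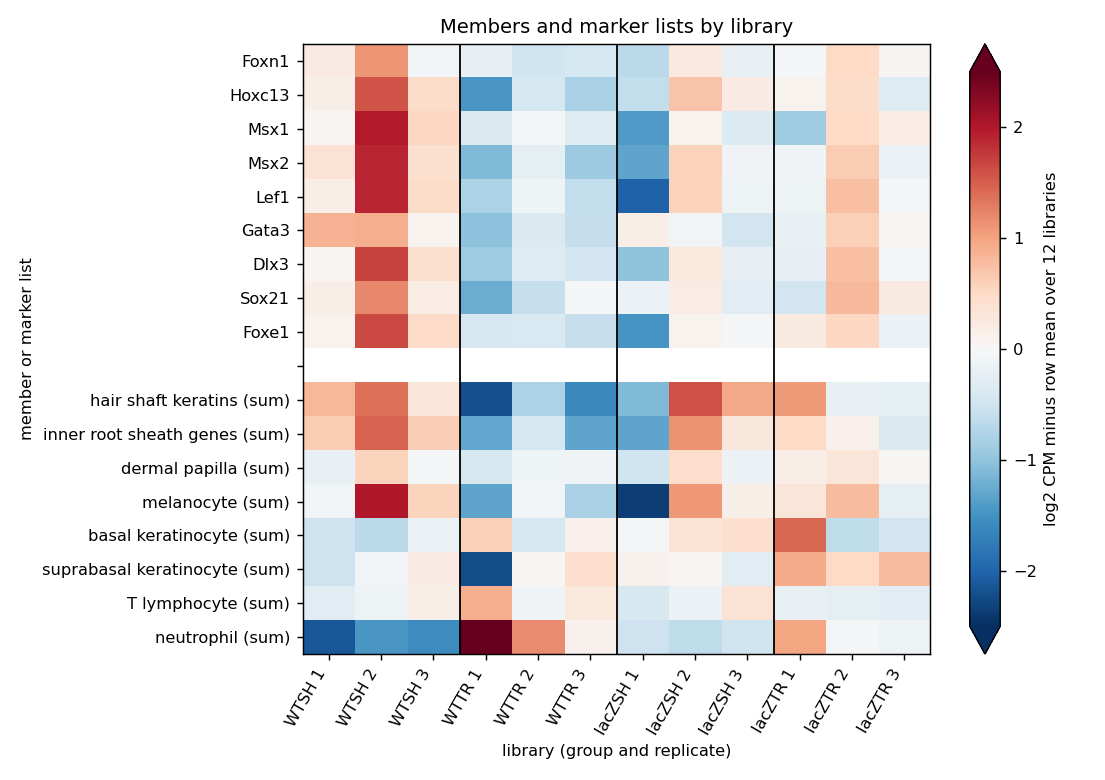
Log2 CPM minus the row mean over 12 libraries (colour, capped at 2.5 either way) for the 9 members and for the summed CPM of 8 gene lists (rows), by library (columns, groups divided by black lines). The members are reddest in WTSH 2, where the keratin row is red too, and average -0.83 to -0.33 in the WTTR libraries. The keratin row is also red in lacZSH 2 and lacZTR 1, where the members average 0.295 and -0.19.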

How the data were processed

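RNA-seq of mouse scars (3 mice in each of 4 groups) was used. The authors trimmed reads with fastp 0.20.0, aligned them with HISAT2 2.1.0 to GRCm38 and counted them on genes with featureCounts 2.0.0. They deposited raw counts per gene and library, without normalization. The strand setting, the annotation and the handling of reads with several alignments are not given in the sources used here, so reads from overlapping genes may be shared.

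Counts were tested with edgeR 4.0.16 in R 4.3.3 (limma 3.58.1, DESeq2 1.42.0) by robust quasi-likelihood over all 12 libraries, after filterByExpr and TMM scaling, with Benjamini-Hochberg adjustment over 18853 genes. Tests were two-sided and calls needed an adjusted p under 0.05. Alternatives were other filters, scalings and tools, a fit of 6 libraries, the replicate number as a block and leaving out libraries. The test was checked on simulated counts. Log2 CPM used a prior count of 2. Lengths were unions of GENCODE vM21 exons. Figures were drawn with Python 3.11.15 and matplotlib 3.10.9.

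The members and gene lists were chosen with earlier results of these data known. Named genes were every member, Cd248 and, per pathway list, the 3 largest called changes or, where none was called, the 2 most abundant genes. The most abundant gene of each marker list was also eligible, as were the 2 genes most like each member. Of these, those bearing on the members are printed.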

Additional observations from a re-analysis of the deposited data

How the results depend on the processing

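With traction in Tem1 WT/WT mice all 9 members kept a lower level under all 16 alternatives, but the count of 2 called members depended on the fit. It was 1 when all genes with at least 1 count were tested. There 3.54% of all genes were called in either direction, against 9.15% in the full model. It was 7 with DESeq2's Wald test (14% of 28443 genes) and 0 with limma-voom (3.97%). With only the 6 libraries compared it was 0, and 0 of 17762 genes were called. When 1 library was left out it was 0 to 2, with 0% to 14.7% of all genes called. Leaving out WTSH 2 and WTTR 1 together, chosen after seeing the data, gave 0 (0.0052% of all genes). The cause of these differences was not tested. With the replicate block the count was 4 (7.78% of all genes), and 1 for traction averaged over genotypes (7.91%), where DESeq2 also gave 1 (13.3%). The labels give replicate numbers only, so whether these numbers pair the libraries is not known. Correlations of same-numbered libraries' deviations ran from -0.32 to 0.25, most of them above 0. Those of libraries with different numbers ran from -0.40 to 0.37. No member was called in the other 4 comparisons under any alternative. The share of all genes called there was 0% to 2.31% for traction in Tem1 lacZ/lacZ mice and 0% to 7.81% for genotype with traction. It was 0% to 0.0703% for genotype in sham and 0% to 0.239% for the interaction. The interaction stayed positive for all 9 under 21 alternatives, and the sham genotype difference stayed negative under 16.

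Signs turned for values near 0. With traction in Tem1 lacZ/lacZ mice, leaving out 1 library gave -0.332 to 0.288 for Hoxc13 (0.288 without lacZSH 2, 0.074 without lacZTR 3), -0.061 to 0.789 for Msx2 (-0.061 without lacZSH 1, -0.046 without lacZTR 2) and -0.021 to 0.663 for Sox21 (-0.021 without lacZTR 2). Msx1 between genotypes with traction ranged from -0.021 (without lacZTR 2) to 0.614, and its average traction effect was 0.008 without WTSH 2 and WTTR 1. Upper quartile scaling moved the median of all genes to -0.12 with traction in Tem1 WT/WT mice and the members' median to -1.47. With 3 libraries a group, replicate spread limits the precision of every comparison, and Msx1 had as few as 36 counts.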
